A study of Neurospora crassa with 42 samples.

Results

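The 5 genes described here encode enzymes of the glyoxylate cycle and of gluconeogenesis in the filamentous fungus Neurospora crassa. They were chosen by identifier, with earlier results of these data known. They are acu-3 (NCU04230, isocitrate lyase), acu-9 (NCU10007, malate synthase), acu-5 (NCU06836, acetyl-CoA synthetase), acu-6 (NCU09873, phosphoenolpyruvate carboxykinase) and fbp-1 (NCU04797, fructose bisphosphatase), 5 of 9758 genes measured. All 5 passed the filter on low values, an average of 1 FPKM or more in the libraries fitted together. FPKM counts fragments relative to transcript length and library depth, so levels of different genes can be set side by side per length. In the RefSeq annotation of assembly NC12, acu-3 lies on chromosome V from 5289251 to 5292173, acu-9 on I from 710761 to 713665, acu-5 on II from 1822777 to 1826393, acu-6 on VI from 1824832 to 1828327 and fbp-1 on VI from 854430 to 856333. That annotation lists con-3 and pck-1 as other names of acu-6.

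Messenger RNA was sequenced in 42 libraries, 3 biological replicates in each of 14 groups, to compare wild type with strains lacking regulators, under carbon starvation and on cellulose. Mycelium was grown from conidia for 16 h on 2% sucrose at 25 °C in constant light, then washed and moved to Vogel's minimal medium that either lacked carbon (starved) or held 2% Avicel, a microcrystalline cellulose. At 10 h all 8 groups were starved: Δcre-1Δclr-3, Δos-1Δclr-3, Δos-2Δclr-3, Δcre-1, Δos-1, Δos-2, Δclr-3 and wild type, which is strain FGSC 2489. At 4 h there were 6 groups: Δclr-1, Δclr-2 and wild type on Avicel, and Δclr-3, Pccg1-clr-2 and wild type starved. The genotype of the Pccg1-clr-2 strain is given with a deletion of clr-2 and a copy of clr-2 driven by the promoter of ccg-1. CLR-1 and CLR-2 are transcription factors needed for the response to cellulose, CLR-3 is a further regulator of that response, OS-1 and OS-2 are the histidine kinase and the MAP kinase of the osmosensing pathway, and CRE-1 is the repressor of carbon catabolite repression. The mycelium is multicellular, so lower bulk FPKM from fewer cells of a type and from less RNA per cell cannot be told apart.

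Fungi that feed on acetate, fatty acids or ethanol gain carbon as acetyl-CoA. Acetyl-CoA synthetase makes acetyl-CoA from acetate, and isocitrate lyase and malate synthase carry the glyoxylate cycle, which bypasses the decarboxylating steps of the citric acid cycle so that its carbon is kept for synthesis. Phosphoenolpyruvate carboxykinase then turns oxaloacetate into phosphoenolpyruvate, the entry to gluconeogenesis, and fructose bisphosphatase catalyses a late step that is irreversible and opposed to phosphofructokinase. The acu genes of Neurospora are named after mutants that cannot use acetate, and genes of this kind are repressed by glucose in many fungi.

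The deleted genes had mean levels of 0.0117 to 6.68 FPKM in the strains that lack them, below every group that carries the same gene. Depth is not given in the files; read from the width of the FPKM bounds, each 10 h library held an estimated 17300000 to 26200000 fragments, and the 4 h libraries had 4980000 to 45600000. Those bounds lay within 0.42 to 10.1% of the value for the 5 genes. Replicates of a 10 h group were closely alike over all genes, with mean correlations of at least 0.991, while at 4 h the lowest were replicates 1 and 3 of wild type on Avicel (0.896 and 0.940) and replicate 2 of starved wild type (0.942). The 7 conidiation genes of the marker list (eas, fl, con-6, con-8, con-10, con-13 and ccg-13), none listed at 0 in any library, mark conidia and aerial hyphae. Their summed level is given beside each comparison of 2 groups below, whether or not it moved with the enzyme genes.

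The genes spanned different ranges. acu-6 had the widest, with group means between 1689 ± 122 FPKM (SD, n = 3) in starved Δcre-1Δclr-3 and 20.2 ± 3.60 FPKM in starved wild type, both at 10 h, an 83.7-fold span. acu-3 lay between 168 ± 27.6 FPKM in Δclr-1 on Avicel and 12.5 ± 1.03 FPKM in Δclr-3 at 10 h. acu-9 lay between 287 ± 215 FPKM in Δclr-1 on Avicel, where 1 of 3 libraries was far above the others, and 29.2 ± 2.41 FPKM in wild type at 10 h. The orders of acu-3, acu-9 and fbp-1 had the same shape at the low end, with starved wild type and starved Δclr-3 at 10 h in the lowest 2 places. fbp-1, the narrowest at 7.93-fold, lay between 196 ± 37.1 FPKM in starved Δclr-3 at 4 h and 24.8 ± 1.79 FPKM in wild type at 10 h. acu-5 had an order of its own, between 126 ± 17.5 FPKM in starved Δos-2Δclr-3 at 10 h and 13.5 ± 1.84 FPKM in starved Δclr-3 at 4 h.

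Most neighbours in these orders overlapped in their libraries. For acu-6, Δcre-1Δclr-3 at 10 h stood apart from the next group, Δos-2 from Δcre-1, Δcre-1 from Δclr-3, and Δos-1 from wild type, all at 10 h for these last pairs. For acu-3, Δcre-1Δclr-3 at 10 h stood apart from wild type on Avicel, Δos-1 at 10 h from wild type at 10 h, and wild type at 10 h from Δclr-3 at 10 h. For acu-9 starved Δclr-3 at 4 h stood apart from Δcre-1 at 10 h, and Δos-1 at 10 h from Δclr-3 at 10 h. For acu-5 the highest group, Δos-2Δclr-3, and the lowest, Δclr-3 at 4 h, both stood apart. So did Δcre-1Δclr-3 at 10 h from Δclr-2 on Avicel, and Δos-2 from Δos-1, both at 10 h. For fbp-1 every neighbouring pair of groups overlapped.

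**Figure D1:**
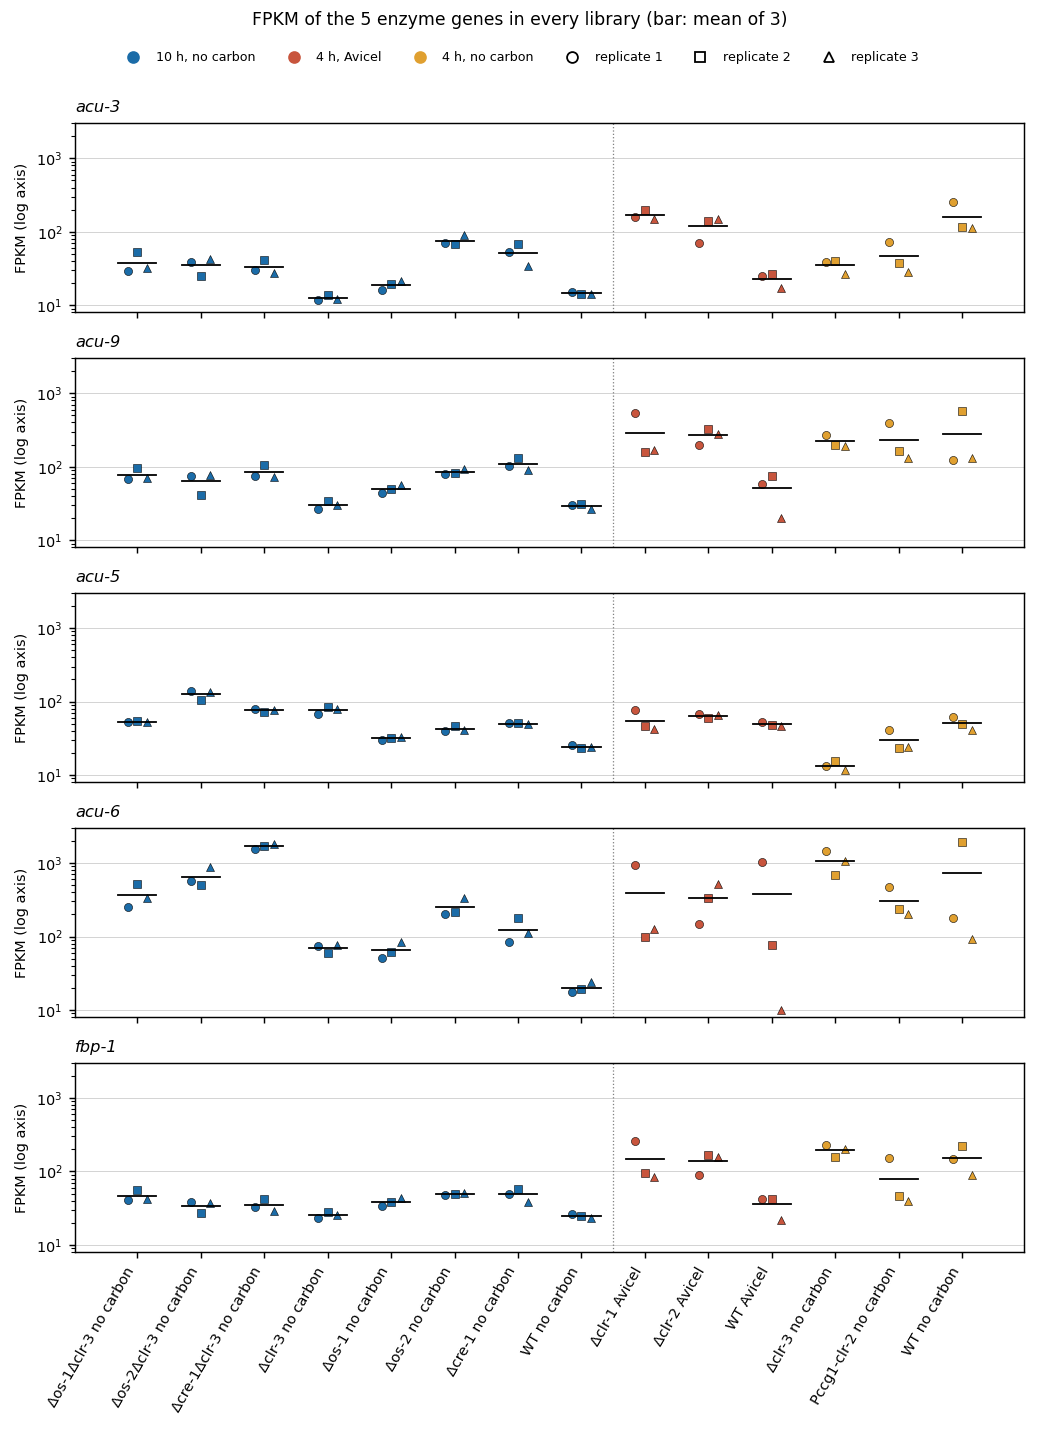
FPKM (log axis) of each gene in all 42 libraries, with 1 marker per library, marker shape for the replicate, colour for time and medium, and a bar at the mean of 3. acu-6 spans the widest range, from 10.1 FPKM in a wild type library on Avicel to 1915 FPKM in a starved wild type library, both at 4 h.

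At 10 h of starvation, the genes were first compared between strains that lack 1 regulator and wild type. Calls needed both an adjusted p (Benjamini-Hochberg, over all genes tested) under 0.05 and a log2 fold change of at least 1 in size, from limma on log2(FPKM + 1), a scale that understates the change of low genes. Standard errors stand after ± beside log2 fold changes. Whether the libraries of compared groups overlapped is given below as a description of these genes, with no share over all genes beside it. The single mutants share the 3 wild type libraries, so their values are given side by side and not as independent.

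Starved Δclr-3 at 10 h differed from wild type in the genes for the entry of acetate and the entry to gluconeogenesis. acu-5 had 67.0, 83.9 and 78.7 FPKM in Δclr-3, against 25.6, 23.1 and 24.5 FPKM in wild type. Every Δclr-3 library lay above every wild type library, and acu-5 rose by 1.61 ± 0.09 on the log2 scale (adjusted p = 5.38e-12). acu-6 had 74.1, 60.5 and 76.1 FPKM in Δclr-3 and 17.3, 19.0 and 24.2 FPKM in wild type. The groups did not overlap for acu-6 either, and it rose by 1.76 ± 0.27 (adjusted p = 9.25e-06). These 2 of the 5 genes were called higher, against 2.93% of all genes tested, and none was called lower. The log2 fold changes of acu-3, acu-9 and fbp-1 were -0.21, 0.05 and 0.04, each with an adjusted p of at least 0.419, and the median of the 5 genes was 0.05 where that of all genes tested was -0.29. The conidiation sum was 4714 to 5148 FPKM in Δclr-3 and 5798 to 8850 FPKM in wild type, and its part in these differences was not tested. None of the 7 genes in it was called, and their median log2 fold change was 0.22, above that of all genes tested.

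Δos-1 and Δos-2 each lack a part of the osmosensing pathway, and acu-6 had the largest difference from wild type in both. In Δos-1, acu-6 had 50.9, 62.3 and 84.5 FPKM, all above wild type (17.3, 19.0 and 24.2 FPKM), and rose by 1.64 ± 0.27 (adjusted p = 6.88e-05). It was the only one of the 5 called in Δos-1, against 1.58% of genes called higher. acu-9 had 43.8, 49.9 and 56.5 FPKM in Δos-1, against 30.5, 30.7 and 26.4 FPKM in wild type, which did not overlap. Log2 fold changes of acu-9, fbp-1 and acu-5 were 0.75, 0.62 and 0.36 with limma adjusted p of 0.00389, 0.00331 and 0.0026, below the fold threshold.

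In Δos-2, acu-6 had 202.6, 215.8 and 329.2 FPKM, against 17.3, 19.0 and 24.2 FPKM in wild type. That was a rise of 3.54 ± 0.27 on the log2 scale (adjusted p = 4.82e-10), 11.6-fold. acu-3 had 71.1, 67.5 and 89.8 FPKM in Δos-2 and 15.4, 14.2 and 14.1 FPKM in wild type, and rose by 2.30 ± 0.23 (adjusted p = 1.81e-08). For its partner in the cycle, acu-9, the values were 78.6, 81.5 and 92.8 FPKM in Δos-2 and 30.5, 30.7 and 26.4 FPKM in wild type, a rise of 1.50 ± 0.20 (adjusted p = 8.52e-07). None of these groups overlapped. Called higher were 3 of the 5 genes, against 4.48% of genes, with a median of 1.50 for the 5 and -0.24 for all genes tested. fbp-1 had 48.2, 49.2 and 51.0 FPKM in Δos-2 and 26.7, 24.5 and 23.1 FPKM in wild type, a log2 fold change of 0.97 just under the threshold (adjusted p = 1.29e-05). With the libraries rescaled so that the typical gene was level, fbp-1 (1.20) and acu-5 (1.01) were called too, which made 5 of 5. Summed conidiation genes had 14853 to 21594 FPKM in Δos-1 and 19800 to 21511 FPKM in Δos-2, against 5798 to 8850 FPKM in wild type. Single genes of this sum went both ways. Of the 7, 3 were called higher and 1 lower in Δos-1, and 3 higher and 2 lower in Δos-2. The part of conidiating tissue in the results for both strains was not tested.

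In Δcre-1, 4 of the 5 genes were called higher, against 2.85% of genes, with a median of 1.72 for the 5 and -0.16 for all genes tested. acu-6 had 84.2, 178.3 and 111.0 FPKM in Δcre-1, against 17.3, 19.0 and 24.2 FPKM in wild type, and rose by 2.51 ± 0.27 (adjusted p = 1.16e-07). acu-9 had 103.4, 131.6 and 88.9 FPKM in Δcre-1, against 30.5, 30.7 and 26.4 FPKM in wild type, and rose by 1.84 ± 0.20 (adjusted p = 8.39e-08). Its group mean of 108 FPKM was the highest of acu-9 among the 10 h strains. acu-3 had 53.8, 67.8 and 34.4 FPKM in Δcre-1, against 15.4, 14.2 and 14.1 FPKM in wild type, and rose by 1.72 ± 0.23 (adjusted p = 1.58e-06). acu-5, with 50.7, 50.8 and 49.2 FPKM in Δcre-1 against 25.6, 23.1 and 24.5 FPKM in wild type, rose by 1.01 ± 0.09 (adjusted p = 4.91e-09). That call sat at the threshold and was lost without wild type replicate 2 (0.98) and with a pseudocount of 10 (0.81). Replicate 2 of Δcre-1 was the highest and replicate 3 the lowest of the group in acu-3, acu-9 and fbp-1. No library of Δcre-1 overlapped wild type in any of the 5 genes, a description with no share over all genes beside it. fbp-1 had a log2 fold change of 0.93 (adjusted p = 3.08e-05), and it was called without Δcre-1 replicate 3 (1.08), with library weights (1.17) and under both rescalings (1.09 each). The conidiation sum was 10020 to 16229 FPKM in Δcre-1 and 5798 to 8850 FPKM in wild type, and its part was not tested. Of the 7 genes in it, 3 were called higher and 1 lower.

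The double mutants were set against starved Δclr-3 at 10 h, so both sides of each comparison lack clr-3. acu-6 was the highest of the 5 genes in every double mutant. In Δcre-1Δclr-3 it had 1562, 1701 and 1805 FPKM, against 74.1, 60.5 and 76.1 FPKM in Δclr-3. These 3 libraries held the highest acu-6 levels among the 24 libraries at 10 h, and the rise was 4.57 ± 0.27 (adjusted p = 6.8e-12), 23.8-fold. In Δos-2Δclr-3, acu-6 had 563.9, 498.5 and 890.8 FPKM and rose by 3.15 ± 0.27 over Δclr-3 (adjusted p = 2.83e-09). In Δos-1Δclr-3, it had 253.8, 516.5 and 330.6 FPKM and rose by 2.31 ± 0.27 over Δclr-3 (adjusted p = 6.56e-07).

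Both glyoxylate cycle genes were called higher in all 3 double mutants. acu-3 had 29.5, 52.5 and 32.5 FPKM in Δos-1Δclr-3, 38.4, 24.7 and 42.4 FPKM in Δos-2Δclr-3 and 30.1, 41.1 and 27.8 FPKM in Δcre-1Δclr-3, against 11.7, 13.7 and 12.1 FPKM in Δclr-3. No double mutant library overlapped Δclr-3, and acu-3 rose by 1.49 ± 0.23, 1.39 ± 0.23 and 1.31 ± 0.23 in that order of strains (adjusted p = 1.61e-05, 1.61e-05 and 2.15e-05). acu-9 had 68.1, 94.9 and 69.6 FPKM in Δos-1Δclr-3, 73.9, 41.3 and 76.1 FPKM in Δos-2Δclr-3 and 75.4, 105 and 72.3 FPKM in Δcre-1Δclr-3, against 26.3, 34.4 and 30.5 FPKM in Δclr-3. It rose by 1.31 ± 0.20, 1.00 ± 0.20 and 1.43 ± 0.20 (adjusted p = 1.16e-05, 0.000112 and 9.71e-07). The call in Δos-2Δclr-3 was at the threshold and was lost without Δclr-3 replicate 1 (0.91), without Δos-2Δclr-3 replicate 1 (0.87) and without its replicate 3 (0.85). Replicate 2 of Δos-2Δclr-3 was the lowest of its group in all 5 genes.

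Each double mutant thus had 3 of the 5 genes called higher over Δclr-3, against 3.11% of genes in Δos-1Δclr-3, 2.72% in Δos-2Δclr-3 and 4.48% in Δcre-1Δclr-3. The medians of the 5 genes were 1.31, 1.00 and 1.31, and those of all genes tested were 0.00, -0.29 and -0.38, in the same order. acu-5 moved otherwise. It had 52.2, 55.0 and 53.6 FPKM in Δos-1Δclr-3, against 67.0, 83.9 and 78.7 FPKM in Δclr-3, a log2 fold change of -0.50 ± 0.09 (adjusted p = 7.71e-05) that stayed under the fold threshold although the groups did not overlap. In Δos-2Δclr-3 it had 138.5, 106.1 and 133.5 FPKM, all above Δclr-3, with a log2 fold change of 0.71 ± 0.09 (adjusted p = 4.13e-07). In Δcre-1Δclr-3 it had 79.3, 73.0 and 77.0 FPKM, and the difference from Δclr-3 was 0.00, with a 95% interval from -0.18 to 0.19. fbp-1 was not called in any double mutant, with log2 fold changes of 0.82, 0.39 and 0.41. Summed conidiation genes had 18765 to 22514 FPKM in Δos-1Δclr-3, 7722 to 10759 FPKM in Δos-2Δclr-3 and 8385 to 11201 FPKM in Δcre-1Δclr-3, against 4714 to 5148 FPKM in Δclr-3. Single genes of this sum went both ways. Of the 7, 4 were called higher and 1 lower in Δos-1Δclr-3, and 3 higher and 2 lower in Δcre-1Δclr-3. In Δos-2Δclr-3, 2 were called higher and 1 lower, and the median log2 fold change of the 7 was -0.17. The part of conidiating tissue was not tested.

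**Figure D2:**
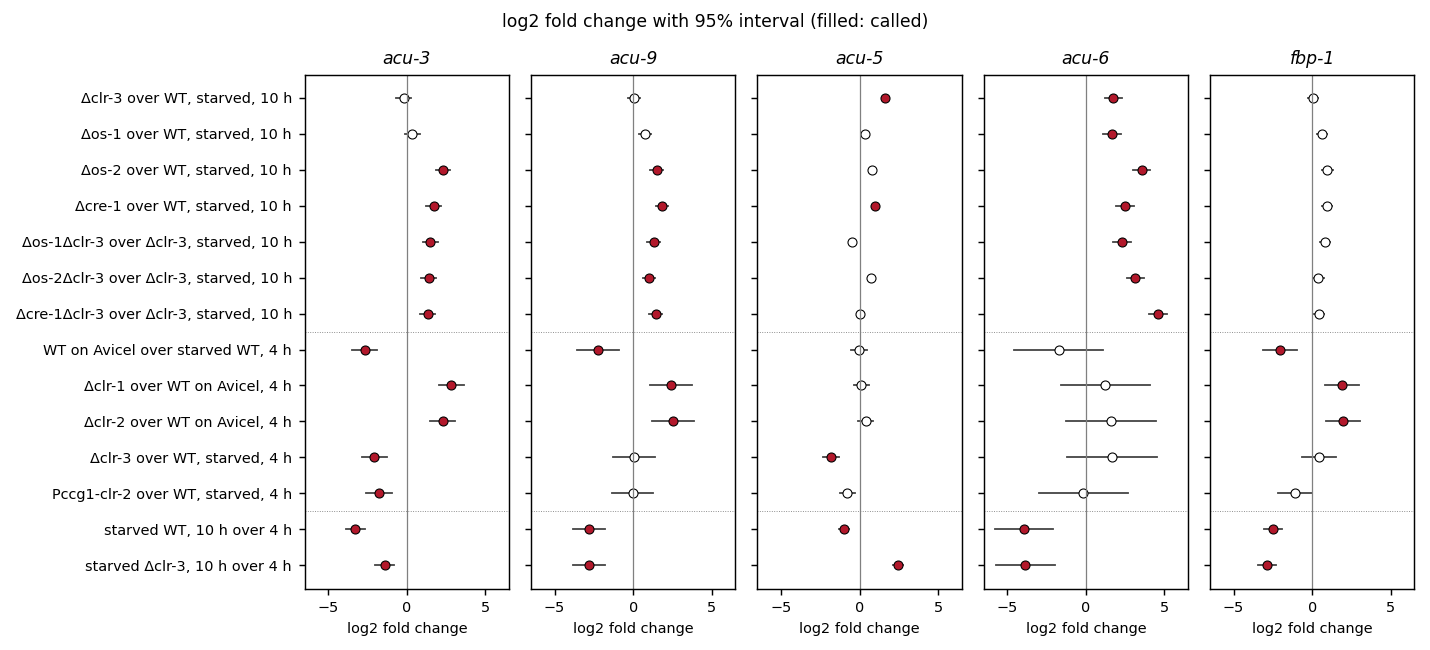
Log2 fold change of each gene (horizontal axis, on log2(FPKM + 1)) with its 95% interval in 14 comparisons, with filled points for called values. acu-6 lies furthest right at 10 h, at 4.57 in Δcre-1Δclr-3 over Δclr-3, and its intervals at 4 h are the widest.

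Whether a second deletion acted differently with and without clr-3 was tested as a difference of differences over 12 libraries: the effect with clr-3 deleted as well, minus the effect with clr-3 present. The effect of Δcre-1 on acu-6 was larger in the Δclr-3 background, by 2.06 ± 0.39 (adjusted p = 0.000156), with log2 fold changes of 4.57 over Δclr-3 and 2.51 over wild type. It was called against 2.63% of genes called higher. Its effect on acu-5 was smaller there, by -1.01 ± 0.12 (adjusted p = 1.24e-06), with 0.00 over Δclr-3 and 1.01 over wild type, against 4.23% of genes called lower. The level of acu-5 was 76.4 ± 3.16 FPKM in Δcre-1Δclr-3 and 76.5 ± 8.70 FPKM in Δclr-3, while it was 50.2 ± 0.902 FPKM in Δcre-1 and 24.4 ± 1.22 FPKM in wild type. The difference for acu-5 fell under the fold threshold, at -0.94 to -0.99, without any 1 of wild type replicate 2, Δclr-3 replicate 2, Δclr-3 replicate 3 and Δcre-1Δclr-3 replicate 2. It was smaller and not called under median-ratio rescaling (-0.78), with the series table (-0.78) and with a pseudocount of 10 (-0.81).

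For Δos-1, 1 gene was called, against 1.50% of genes called higher. The effect of Δos-1 on acu-3 was larger in the Δclr-3 background by 1.14 ± 0.32 (adjusted p = 0.0126), with 1.49 over Δclr-3 and 0.35 over wild type. Without Δos-1Δclr-3 replicate 2, the highest acu-3 library of that strain, it was 0.90 and not called, nor was it called with a pseudocount of 10 (0.83) or library weights (0.94). The effect on acu-5 was lower by -0.86 ± 0.12 (adjusted p = 5.06e-05), under the fold threshold, with opposite signs in the 2 backgrounds (-0.50 over Δclr-3 and 0.36 over wild type). For Δos-2, limma called none of the 5 differences, against 4.62% of genes called either way. At an adjusted p under 0.05 there were 2 that missed only the fold threshold, acu-3 (-0.91 ± 0.32, adjusted p = 0.0302) and fbp-1 (-0.58 ± 0.22, adjusted p = 0.0437). Without Δos-2Δclr-3 replicate 3, acu-3 was called at -1.06. For acu-6 the differences were 0.67 ± 0.39 with Δos-1 and -0.39 ± 0.39 with Δos-2 (adjusted p = 0.211 and 0.451), with 95% intervals from -0.13 to 1.48 and from -1.19 to 0.42.

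Ratios between the genes in the same library do not depend on how a library was scaled, and they are given as descriptions with no test. The ratio of acu-6 to fbp-1, the first and a late step of gluconeogenesis, had group medians of 7.84 in Δos-1Δclr-3, 18.4 in Δos-2Δclr-3 and 48.4 in Δcre-1Δclr-3, against 3.02 in Δclr-3. In the single mutants the medians were 1.61 in Δos-1, 4.39 in Δos-2 and 2.86 in Δcre-1, against 0.778 in wild type. The ranges of the double mutants did not overlap each other or Δclr-3. The ratio of acu-9 to acu-3, the 2 enzymes of the cycle itself, moved less at 10 h, with medians from 1.10 to 2.61 over the 8 strains. Δos-2 was the lowest, with 1.03 to 1.21 in its libraries against 1.87 to 2.16 in wild type. At 4 h the same ratio was 4.99 to 7.04 in starved Δclr-3 and 4.43 to 5.39 in Pccg1-clr-2, while in starved wild type it ran from 0.480 to 5.03 and overlapped both ranges.

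**Figure D3:**
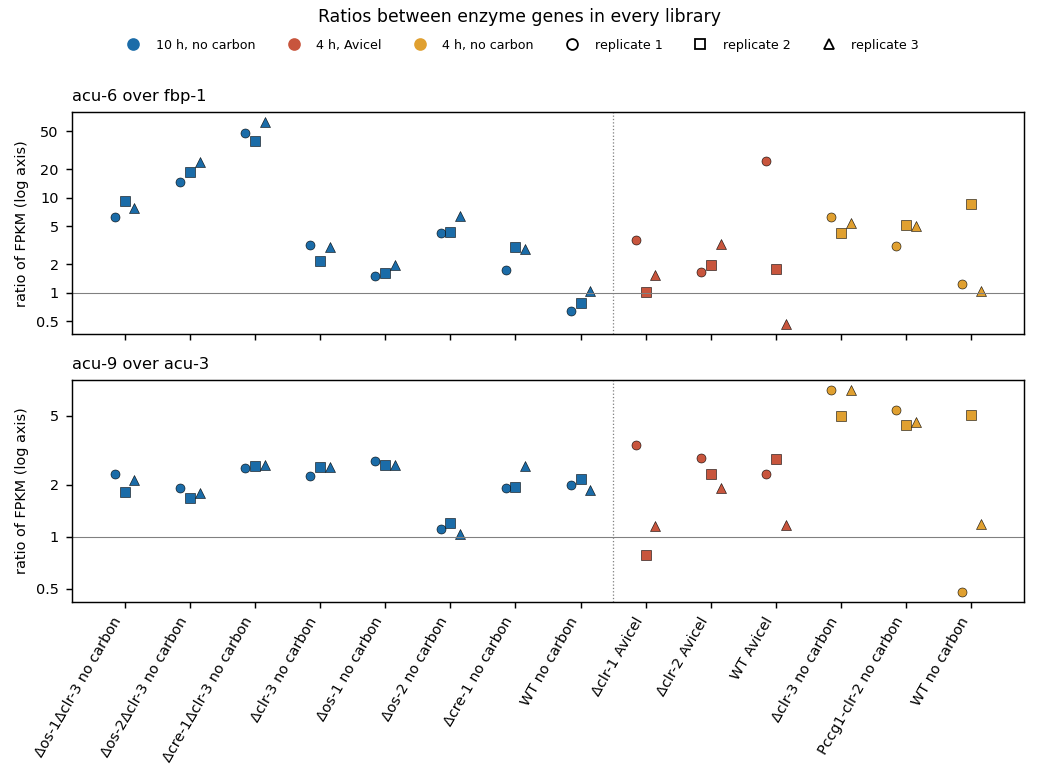
Ratio of FPKM (log axis) of acu-6 to fbp-1 and of acu-9 to acu-3 in every library, with marker shape for the replicate and colour for time and medium. The acu-6 to fbp-1 ratio is highest in Δcre-1Δclr-3 at 10 h, between 39.8 and 62.1, and the 3 starved wild type libraries at 4 h are spread from 0.480 to 5.03 in the acu-9 to acu-3 ratio.

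At 4 h the genes varied more among replicates than at 10 h, as did the median of all genes. The residual SD of acu-6 within groups was 1.86 on the log2 scale, which was above 99.8% of the 8268 genes tested (14 genes were higher), while the median gene had 0.255. acu-9 had 0.861, fbp-1 0.699, acu-3 0.508 and acu-5 0.294. At 10 h acu-6 had a residual SD of 0.376, above 98.7% of 8014 genes (median 0.0979). The others had 0.267 (acu-9), 0.213 (fbp-1), 0.312 (acu-3) and 0.114 (acu-5) at 10 h. acu-3 was above 97.6% of genes at 10 h and above 90.4% at 4 h. In wild type on Avicel acu-6 had 1035, 76.2 and 10.1 FPKM, a 102-fold range, and in starved wild type 180.7, 1915 and 91.9 FPKM, a 20.8-fold range. Replicate 1 of Δclr-1 on Avicel was also high, with 931 FPKM against 97.9 and 128 FPKM in its other libraries. The single high libraries of wild type on Avicel, starved wild type and Δclr-1 are the libraries farthest from their groups over all genes.

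**Figure D4:**
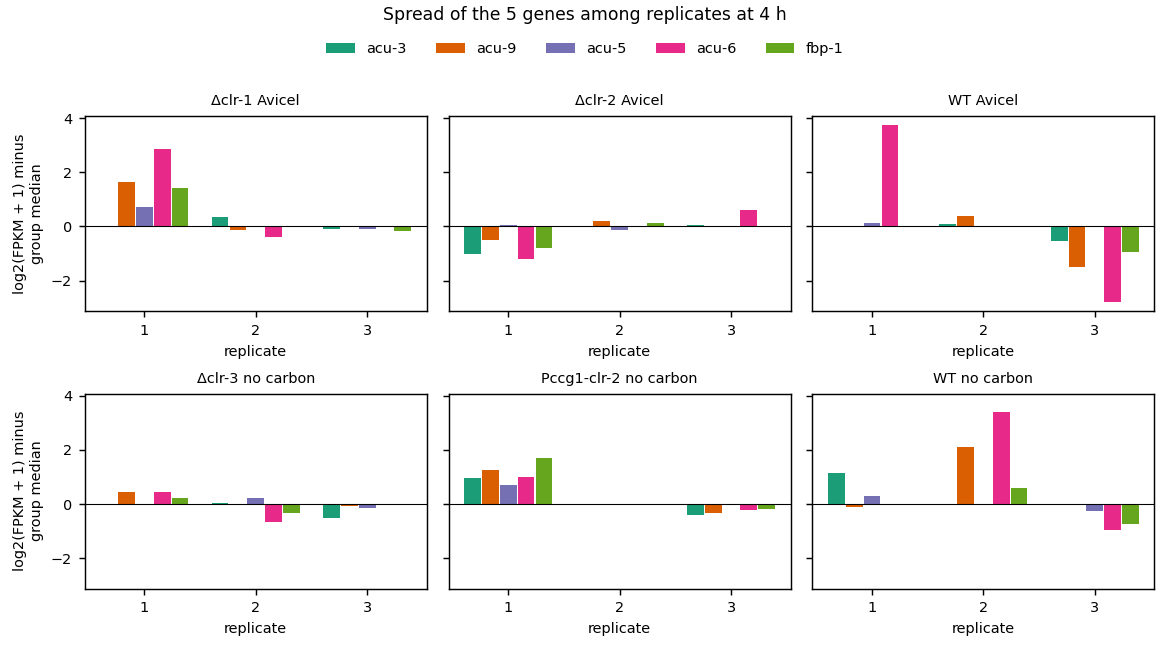
Level of each gene at 4 h on log2(FPKM + 1) minus the median of its group (vertical axis), by replicate (horizontal axis), in the 6 groups. acu-6 has the tallest bars, 3.75 above the median in replicate 1 of wild type on Avicel and 3.40 above it in replicate 2 of starved wild type, and acu-5 stays closest to 0.

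In these libraries not all of the genes moved together. Replicate 2 of starved wild type, high in acu-6, was also high in acu-9 (578 FPKM against 122 and 133) and fbp-1 (223 FPKM against 148 and 88.0), but acu-3 was high in replicate 1 instead (255 FPKM against 115 and 112). The conidiation sum in starved wild type was 15778, 8316 and 8180 FPKM in replicates 1, 2 and 3, high in the library with high acu-3. In Pccg1-clr-2, replicate 1 was the highest in all 5 genes and in the conidiation sum (11492 FPKM against 4159 and 5786). In wild type on Avicel, replicate 1 stood far apart in acu-6 alone, and replicate 3 was the lowest in all 5 genes. The part of conidiating tissue in this spread was not tested.

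On Avicel against starvation at 4 h, wild type had 3 of the 5 genes called lower, against 7.47% of genes, and none called higher. acu-3 had 25.1, 26.9 and 17.1 FPKM in wild type on Avicel, against 255, 115 and 112 FPKM in starved wild type, and fell by 2.67 ± 0.38 (adjusted p = 0.000137). acu-9 had 58.0, 75.4 and 19.9 FPKM on Avicel, against 122, 578 and 133 FPKM starved, and fell by 2.22 ± 0.63 (adjusted p = 0.0127). fbp-1 had 42.2, 42.5 and 21.7 FPKM on Avicel, against 148, 223 and 88.0 FPKM starved, and fell by 2.04 ± 0.51 (adjusted p = 0.00693). The groups did not overlap in any of the 3 genes, again a description with no share over all genes beside it. The median of all genes was -0.39 and that of the 5 genes -2.04. acu-5 had 52.4, 47.3 and 47.2 FPKM on Avicel, within the range of the starved libraries (61.5, 49.4 and 40.7 FPKM), with a difference of -0.03 and a 95% interval from -0.51 to 0.46. For acu-6, the difference of -1.73 ± 1.34 had a 95% interval from -4.58 to 1.12 and gave no call, but without wild type replicate 1 on Avicel it was -3.44 and called (adjusted p = 0.0407), as it was with library weights (-3.18, adjusted p = 0.0259) and without the library farthest from its group in each 4 h group, an alternative added after the values were seen (-2.15, adjusted p = 0.0357). The call for acu-9 was lost without starved wild type replicate 2 (-1.50, adjusted p = 0.0547), in a fit of these 2 groups alone (adjusted p = 0.111) and under both rescalings (-1.79 and -1.81). Under the median-ratio rescaling fbp-1 was not called either (-1.61, adjusted p = 0.0551), which left acu-3. All 7 conidiation genes were called lower on Avicel as well, and their sum was 1426 to 2594 FPKM on Avicel and 8180 to 15778 FPKM starved; its part was not tested.

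In both strains that lack a cellulose regulator, acu-3, acu-9 and fbp-1 were called higher than in wild type on Avicel. The 2 comparisons share the 3 wild type libraries. acu-3 had 157, 199 and 148 FPKM in Δclr-1 and 69.7, 141 and 148 FPKM in Δclr-2, against 25.1, 26.9 and 17.1 FPKM in wild type. It rose by 2.83 ± 0.38 and 2.28 ± 0.38 (adjusted p = 0.000109 and 0.000961). acu-9 had 535, 157 and 170 FPKM in Δclr-1 and 197, 325 and 281 FPKM in Δclr-2, against 58.0, 75.4 and 19.9 FPKM in wild type, and rose by 2.42 ± 0.63 and 2.53 ± 0.63 (adjusted p = 0.0106 and 0.00953). fbp-1 had 259, 95.8 and 84.2 FPKM in Δclr-1 and 88.9, 169 and 157 FPKM in Δclr-2, against 42.2, 42.5 and 21.7 FPKM in wild type, and rose by 1.88 ± 0.51 and 1.94 ± 0.51 (adjusted p = 0.013 and 0.0123). Neither mutant overlapped wild type in these 3 genes. The calls stand against 5.84% of genes called higher in Δclr-1 and 4.23% in Δclr-2, with medians of 1.88 and 1.94 for the 5 genes and 0.33 and 0.37 for all genes tested. The calls of acu-9 and fbp-1 did not hold throughout: fbp-1 was lost without Δclr-1 replicate 1 (1.38, adjusted p = 0.0504) and without Δclr-2 replicate 2 (1.77, adjusted p = 0.0515), a fit of Δclr-1 and wild type alone called acu-3 only, and median-ratio rescaling called acu-3 only in Δclr-2. acu-3 was called under all 15 alternatives in both strains.

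acu-5 was not called in either strain on Avicel. It had 76.4, 45.8 and 42.8 FPKM in Δclr-1 and 68.3, 59.5 and 65.1 FPKM in Δclr-2, against 52.4, 47.3 and 47.2 FPKM in wild type, with log2 fold changes of 0.12 and 0.39 (adjusted p = 0.708 and 0.186). acu-6 had 931, 97.9 and 128 FPKM in Δclr-1 and 146, 335 and 513 FPKM in Δclr-2, against 1035, 76.2 and 10.1 FPKM in wild type. Its differences, 1.25 and 1.61, had 95% intervals from -1.60 to 4.09 and from -1.24 to 4.46, so acu-6 was not called in either strain. Library weights, which count libraries far from their group for less, called it in both, at 2.60 in Δclr-1 (adjusted p = 0.000776) and 4.28 in Δclr-2 (adjusted p = 4.93e-05). With those farthest libraries left out, acu-6 was called in Δclr-2 (3.82, adjusted p = 0.00287) and not in Δclr-1 (1.95, adjusted p = 0.0528). The conidiation sum was 1334 to 1750 FPKM in Δclr-1 and 1903 to 3065 FPKM in Δclr-2, against 1426 to 2594 FPKM in wild type on Avicel, and none of the 7 conidiation genes was called in either strain.

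In starved Δclr-3 at 4 h, 2 of the 5 genes were called lower than in starved wild type, against 7.45% of genes. acu-3 had 39.0, 40.1 and 27.0 FPKM in Δclr-3, against 255, 115 and 112 FPKM in wild type, and fell by 2.06 ± 0.38 (adjusted p = 0.00111). acu-5 had 13.1, 15.5 and 11.8 FPKM in Δclr-3, against 61.5, 49.4 and 40.7 FPKM in wild type, and fell by 1.82 ± 0.23 (adjusted p = 6.08e-05). Neither gene overlapped between the groups, and both calls held in all 15 alternatives. acu-9, fbp-1 and acu-6 were not called, at 0.05 ± 0.63, 0.44 ± 0.51 and 1.68 ± 1.34. acu-6 had 1443, 679 and 1073 FPKM in Δclr-3, against 181, 1915 and 91.9 FPKM in wild type, so 2 of 3 wild type libraries lay below all Δclr-3 libraries and 1 above them. With the farthest library dropped from every 4 h group, acu-6 was called at 2.72 (adjusted p = 0.0108). Summed conidiation genes had 4952 to 7849 FPKM in Δclr-3 and 8180 to 15778 FPKM in wild type. None of the 7 genes in this sum was called, and its part was not tested.

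The starved Pccg1-clr-2 strain had 1 of the 5 genes called lower than starved wild type, against 7.73% of genes. acu-3 had 73.4, 37.5 and 28.4 FPKM in Pccg1-clr-2, against 255, 115 and 112 FPKM in wild type, and fell by 1.77 ± 0.38 (adjusted p = 0.00254). acu-5 had 40.8, 23.7 and 24.4 FPKM in Pccg1-clr-2, against 61.5, 49.4 and 40.7 FPKM in wild type, with a log2 fold change of -0.78 ± 0.23 (adjusted p = 0.0182). fbp-1 had 152, 45.6 and 40.1 FPKM in Pccg1-clr-2, against 148, 223 and 88.0 FPKM in wild type, at -1.11 ± 0.51 (adjusted p = 0.109). Replicate 1 of Pccg1-clr-2 was the highest of its group in all of these genes, and without it acu-5 (-1.02, adjusted p = 0.00353) and fbp-1 (-1.72, adjusted p = 0.0147) were called as well. acu-9 had 396, 166 and 131 FPKM in Pccg1-clr-2, against 122, 578 and 133 FPKM in wild type, a difference of -0.04 ± 0.63. acu-6, with 477, 236 and 204 FPKM in Pccg1-clr-2 against 181, 1915 and 91.9 FPKM in wild type, differed by -0.16 ± 1.34, and the groups overlapped in both genes. The conidiation sum was 4159 to 11492 FPKM in Pccg1-clr-2 and 8180 to 15778 FPKM in starved wild type. None of the 7 genes in it was called, and its part was not tested.

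Between 4 h and 10 h of starvation all 5 genes changed in both wild type and Δclr-3, in a fit of those 12 libraries. Each time is a separate set of libraries, so a difference between the sets and the time cannot be told apart. In wild type all 5 were called lower at 10 h, against 10.9% of genes called lower, with a median of -2.82 for the 5 and 0.01 for all genes tested. acu-6 had 17.3, 19.0 and 24.2 FPKM at 10 h, against 181, 1915 and 91.9 FPKM at 4 h, and fell by 3.92 ± 0.84 (adjusted p = 0.00202). acu-3 had 15.4, 14.2 and 14.1 FPKM at 10 h, against 255, 115 and 112 FPKM at 4 h, and fell by 3.27 ± 0.27 (adjusted p = 2.32e-06). acu-9 fell by 2.82 ± 0.46 (adjusted p = 0.000363) and fbp-1 fell by 2.48 ± 0.27 (adjusted p = 1.76e-05). No library at 10 h overlapped those at 4 h for any of the 5 genes, again with no share over all genes beside it. acu-5 had 25.6, 23.1 and 24.5 FPKM at 10 h, against 61.5, 49.4 and 40.7 FPKM at 4 h, and its fall of 1.00 ± 0.15 (adjusted p = 0.00016) sat at the threshold. It was lost without wild type replicate 2 at 10 h (-0.97), without wild type replicate 1 at 4 h (-0.85) and under both rescalings, which set it just above -1. The conidiation sum was 5798 to 8850 FPKM at 10 h and 8180 to 15778 FPKM at 4 h in wild type, and its part was not tested. Of the 7 genes in it, 1 was called higher and 2 lower.

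In Δclr-3, acu-5 went the other way from the remaining genes. It had 67.0, 83.9 and 78.7 FPKM at 10 h, against 13.1, 15.5 and 11.8 FPKM at 4 h, and rose by 2.42 ± 0.15 (adjusted p = 2.36e-07), against 7.79% of genes called higher. The other 4 genes were called lower at 10 h, against 11.7% of genes. acu-6 had 74.1, 60.5 and 76.1 FPKM at 10 h, against 1443, 679 and 1073 FPKM at 4 h, and fell by 3.84 ± 0.84 (adjusted p = 0.00214). fbp-1 had 23.2, 28.3 and 25.2 FPKM at 10 h, against 232, 158 and 199 FPKM at 4 h, and fell by 2.88 ± 0.27 (adjusted p = 5.34e-06). These groups were far apart, as were those of acu-9, with 26.3, 34.4 and 30.5 FPKM at 10 h and 274, 200 and 190 FPKM at 4 h (a fall of 2.81 ± 0.46, adjusted p = 0.000329). acu-3 fell least, by 1.41 ± 0.27 (adjusted p = 0.000882), with 11.7, 13.7 and 12.1 FPKM at 10 h and 39.0, 40.1 and 27.0 FPKM at 4 h, and just missed the fold threshold with a pseudocount of 10 (-0.999). The conidiation sum was 4714 to 5148 FPKM at 10 h and 4952 to 7849 FPKM at 4 h in Δclr-3, and its part was not tested. Of the 7 genes in it, 1 was called higher and 1 lower, and their median log2 fold change was 0.27.

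The effect of Δclr-3 at 10 h minus its effect at 4 h, a comparison added after the values were seen, was called for 2 of the 5 genes, against 3.30% of genes called higher. For acu-5 it was 3.43 ± 0.21 (adjusted p = 2.77e-05): Δclr-3 had 3.14 times the mean wild type FPKM at 10 h and 0.267 times that at 4 h. For acu-3 it was 1.86 ± 0.38 (adjusted p = 0.00581), with 0.858 times the mean wild type FPKM at 10 h and 0.22 times that at 4 h. acu-9, acu-6 and fbp-1 had differences of 0.00 ± 0.66, 0.08 ± 1.19 and -0.40 ± 0.38. Without starved wild type replicate 2 at 4 h, acu-9 was at -0.72 (adjusted p = 0.0202) and acu-6 at -1.21 (adjusted p = 0.0445), the second of which was then called.

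Across the 14 group means on log2(FPKM + 1), acu-9 and fbp-1 were the most alike, with a Pearson correlation of 0.92, followed by acu-3 and acu-9 with 0.84 and acu-3 and fbp-1 with 0.76. acu-6 was less like them, at 0.40 to 0.57, and acu-5 ranged from -0.34 with fbp-1 to 0.19 with acu-6. These are descriptions over groups that share time, medium and parent strains. Within groups, over the 24 libraries at 10 h, acu-3, acu-9 and fbp-1 had correlations of 0.92 to 0.95 with each other, in deviations from the group means. Over the 18 libraries at 4 h, acu-9 and fbp-1 (0.88), acu-9 and acu-6 (0.81) and acu-6 and fbp-1 (0.72) were high, while acu-3 and acu-9 had 0.25 and acu-3 and acu-6 had 0.20.

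Of 8245 genes ranked by likeness over the 14 group means, the 3 most like each enzyme gene mostly had no symbol in the annotation. For acu-9 they were fbp-1, tca-10 (0.91) and NCU09913 (0.90). For fbp-1 they were NCU11364 (0.97), npd-2 (0.94) and NCU06643 (0.93), with acu-9 in place 7. For acu-5 they were nit-6 (0.832), which encodes nitrite reductase, NCU04983 (0.825) and NCU03154 (0.815). The highest group mean of nit-6 was in Δcre-1Δclr-3 and its lowest in Δclr-3 at 4 h. For acu-6 they were NCU04228 (0.92), NCU01652 (0.90) and NCU07466 (0.88), all with their highest group mean in Δcre-1Δclr-3 and their lowest in wild type at 10 h. For acu-3 they were NCU08561 (0.92), NCU00316 (0.90) and NCU04092 (0.88), all highest in Δclr-1 on Avicel.

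Other genes of acetate use and central carbon metabolism were set beside these enzymes. Over the 14 comparisons of 2 groups, acu-3 was called in 12, acu-9 in 10, acu-6 in 9, and acu-5 and fbp-1 in 5 each. acu-8, which encodes acetyl-CoA hydrolase, was called in 1, higher at 10 h than at 4 h in Δclr-3 (1.12 ± 0.12, adjusted p = 1.11e-05), where acu-5 rose too. acu-15, whose product in Neurospora is an activator of acetate genes and resembles FacB of Aspergillus, was called in none; its largest difference at 10 h was in Δos-2 over wild type, with 429 ± 23.7 FPKM against 223 ± 3.62 FPKM (0.94 ± 0.07, adjusted p = 5.54e-10). aod-2, a transcription factor of the alternative oxidase gene, was called in 4. It had 7.75 ± 1.47 FPKM in wild type on Avicel and 23.9 ± 2.86 FPKM in starved wild type (-1.51 ± 0.17, adjusted p = 1.68e-05), and it was called higher in Δclr-1 (1.08) and Δclr-2 (1.19) than in wild type on Avicel and lower in Pccg1-clr-2 (-1.68) than in starved wild type. In each of these 4 comparisons acu-3 was called in the same direction, but acu-3 was called in 12 of the 14, mostly where aod-2 was not. Of the other regulators listed, only col-26 was called, in 1 comparison. A link between regulator and enzyme genes was not tested.

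Among 20 peroxin genes, which build the peroxisomes that house the glyoxylate enzymes in Neurospora, 2 were called lower in wild type on Avicel, 1 was called higher in each of Δclr-1 and Δclr-2 and 3 were called lower in Pccg1-clr-2. Over all genes the shares were 7.47% lower on Avicel, 5.84% and 4.23% higher in Δclr-1 and Δclr-2 and 7.73% lower in Pccg1-clr-2, so 2 of 20 and 1 of 20 lie near the background. None was called in the 10 other comparisons of 2 groups. pex20, for a receptor of protein import, was called in all 4 of those strains and media, at -1.16, 1.01, 1.14 and -1.17. fox-2, the multifunctional enzyme of peroxisomal fatty acid oxidation, was called higher in Δclr-1 (1.18) and Δclr-2 (1.16). Of 9 glycolysis genes, which include genes for steps shared with gluconeogenesis, at most 3 were called in any comparison of 2 groups. emp-6 was called in 5 of these, higher each time. At 10 h it had 1.49 in Δclr-3, 1.10 in Δos-2 and 1.77 in Δcre-1 over wild type and 1.88 in Δcre-1Δclr-3 over Δclr-3, and at 10 h over 4 h in Δclr-3, where acu-6 was called lower, it had 1.83. It was not called in Δos-1, Δos-1Δclr-3 or Δos-2Δclr-3 (0.14, -0.43 and 0.72), where acu-6 was called higher. cit-1, for citrate synthase, was the only citric acid cycle gene in the lists. It was called lower in starved Δclr-3 at 4 h (-1.13 ± 0.20) and higher at 10 h than at 4 h in Δclr-3 (1.15 ± 0.11), the directions of acu-5 there. In the other comparisons where acu-5 was called, cit-1 was not. It had 0.27 in Δclr-3 and 0.77 in Δcre-1 over wild type at 10 h, and -0.25 in wild type at 10 h over 4 h.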

How the data were processed

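The authors deposited FPKM per gene for each of 42 libraries of Neurospora crassa (9758 genes, with the bounds of each estimate per the file headers), and a whole-series table, also FPKM. HISAT2 2.0.5 and Cufflinks 2.2.1 are named in the submitters' processing notes, with no role stated; the sources used here do not give annotation, strandedness or filters, so reads of overlapping or antisense genes could not be told apart. No counts were used, so depth was read from the FPKM bounds and RefSeq gene spans. Of the genes, 12 whose status was not OK somewhere were dropped and 9746 kept. Each of the 42 columns of the series table is a rescaled copy of a per-library file of its group (log2 factors -0.37 to 0.47, at least 99.77% of genes within 0.01), but in 31 columns with another replicate number; per-library numbers are used, and the table serves as an alternative scaling.

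Groups and replicates come from the labels, which call the replicates biological. log2(FPKM + 1) was fitted with limma 3.58.1 (R 4.3.3; lmFit, contrasts.fit, eBayes with trend) for genes averaging 1 FPKM or more, with a term per group, in separate fits for 4 h (18 libraries), 10 h (24) and starved wild type and Δclr-3 at both times (12). A deleted gene was left out of its own comparisons. Calls needed a Benjamini-Hochberg adjusted p under 0.05 over all genes tested and a log2 fold change of 1 or more either way, in 18 comparisons; the steps were tested on simulated data. Pandas 2.3.3 and matplotlib 3.10.9 in Python 3.11.15 made the descriptions and plots. The 5 genes and the lists were chosen with earlier results of these data known. The 5 genes are always named, with the 3 genes most correlated with each over the 14 group means and at most 4 genes per other list, those called in most comparisons; further genes of those lists were chosen after their values were seen.

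Alternatives were pseudocounts, low-value filters, rescaling, the series table, library weights, fits of the compared groups alone, a replicate block and leaving out each library, with the farthest library of each 4 h group and the change of the Δclr-3 effect over time added after seeing the data. The replicate numbers are shared by the labels only. Deviations of same-numbered libraries from their group means correlated above 0.1 for every number only in Δclr-1 against wild type on Avicel (0.385, 0.212 and 0.395) and in Δcre-1Δclr-3 against Δclr-3 (0.112, 0.155 and 0.135). For replicate 2 of Δclr-1, another number correlated more (0.452). The main values for both are from fits without a replicate term. With the block in limma their calls stayed the same, as for acu-9 in Δclr-1 (2.42, adjusted p = 0.00764) and acu-6 in Δcre-1Δclr-3 (4.57, adjusted p = 3.71e-12).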

Additional observations from a re-analysis of the deposited data

Results flagged for a closer look

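Each difference of effects below had an adjusted p under 0.05 in limma, and its values by library stand in the report. The effect of a second deletion differed between the Δclr-3 background and the wild type background for 6 values. For Δcre-1 these were acu-6 at 2.06 (adjusted p = 0.000156) and acu-5 at -1.01 (adjusted p = 1.24e-06). For Δos-1 they were acu-3 at 1.14 (adjusted p = 0.0126) and acu-5 at -0.86 (adjusted p = 5.06e-05). For Δos-2 they were acu-3 at -0.91 (adjusted p = 0.0302) and fbp-1 at -0.58 (adjusted p = 0.0437). The acu-5 value with Δos-1 and both values with Δos-2 were under the fold threshold and not called. Under the alternatives, the limma adjusted p with Δos-2 reached 0.0942 for acu-3 and 0.131 for fbp-1. The effect of Δclr-3 differed between 10 h and 4 h for acu-5 at 3.43 (adjusted p = 2.77e-05) and acu-3 at 1.86 (adjusted p = 0.00581).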

How the results depend on the processing

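Alternatives kept direction and call for 1304 values of single genes; 38 lost a call, 23 gained one and 55 changed sign. Counts of the 5 genes called stayed within 1.5 times for 265 and moved for 19. Median-ratio rescaling gave 1 gene called in wild type on Avicel and in Δclr-2, 5 in Δos-2 and 1 for Δcre-1 across backgrounds, which was also 1 with the series table and the pseudocount of 10. That pseudocount gave 1 gene in Δos-2Δclr-3 over Δclr-3 and 0 for Δos-1 across backgrounds, as did library weights. Fitting the compared groups alone gave 1 for Δclr-1. In Pccg1-clr-2 over wild type, weights gave 2 genes, and dropping the farthest library of every 4 h group 3. With 1 library left out, counts were 1 to 3 for Pccg1-clr-2, 0 to 1 for both Δos-1 and Δos-2 across backgrounds and 1 to 2 for Δcre-1 across backgrounds. For Pccg1-clr-2 and for Δos-2 across backgrounds, replicate 1 of Pccg1-clr-2 and replicate 3 of Δos-2Δclr-3 made the difference. Counts that stayed within 1.5 times also varied with 1 library left out. They were 2 to 4 for wild type on Avicel over starved and 2 to 3 for Δclr-1, Δclr-2 and Δos-2Δclr-3. For Δcre-1 over wild type they were 3 to 5, for Δos-2 over wild type 3 to 4 and for wild type at 10 h over 4 h 4 to 5. The change of the Δclr-3 effect over time had 2 to 3.

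Sign changes concerned values that the report gives as not called. After median-ratio rescaling and with the series table, acu-5 was 0.40 and 0.38 in wild type on Avicel over starved, -0.24 and -0.24 for Δclr-1, -0.015 and -0.01 for Δclr-2 and 0.021 and 0.038 for Δos-2 across backgrounds (0.036 with the pseudocount of 10). With the same 2 scalings, Pccg1-clr-2 over wild type had 0.14 and 0.15 for acu-6 and 0.26 and 0.27 for acu-9, and acu-3 in Δclr-3 at 10 h was 0.089 and 0.084. Library weights gave -0.092 for acu-5 in Δclr-1, 0.23 for acu-6 in Pccg1-clr-2 and -0.067 for acu-5 in Δcre-1Δclr-3. Without the farthest 4 h libraries, acu-5 in Δclr-1 was -0.091, and Pccg1-clr-2 had 0.76 for acu-6 and 0.21 for acu-9. For the change of the Δclr-3 effect over time, acu-6 was -0.21 with the pseudocount of 10, -0.72 with weights and -0.96 without the farthest libraries, and acu-9 was -0.27 with weights and -0.56 without the farthest libraries.

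With 1 library left out, acu-5 ranged from -0.17 to 0.12 in wild type on Avicel, from -0.14 to 0.27 in Δclr-1, from -0.089 to 0.072 in Δcre-1Δclr-3 and from -0.16 to 0.047 for Δos-2 across backgrounds. acu-6 ranged from -0.31 to 2.96 in Δclr-1, from -1.05 to 1.14 in Pccg1-clr-2 and from -1.21 to 0.97 in the change over time. acu-9 ranged from -0.34 to 0.77 in Δclr-3 at 4 h, from -0.51 to 0.68 in Pccg1-clr-2, from -0.039 to 0.15 in Δclr-3 at 10 h and from -0.72 to 0.39 in the change over time, and fbp-1 from -0.031 to 0.11 in Δclr-3 at 10 h. The causes were not tested.

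The pseudocount of 10 lowered the count of genes called in every comparison, 1.94 to 2.84-fold, and with it the fold threshold was missed by acu-3 in Δos-2Δclr-3 (0.98), Δcre-1Δclr-3 (0.92), Δos-1 across backgrounds (0.83) and Δclr-3 at 10 h over 4 h (-0.999), by acu-9 in Δos-2Δclr-3 (0.83) and by acu-5 in Δcre-1 (0.81), Δcre-1 across backgrounds (-0.81) and wild type at 10 h over 4 h (-0.80). Fitting the compared groups alone gave 290 genes in wild type on Avicel (main 870), 292 in Δclr-1 (688) and, for Δclr-2, 265 (533). The series table gave 557, 443 and 325 for the same comparisons, and rescaling 343 for Δclr-2. With 1 library left out, Δclr-1 had 458 to 1064 genes and Δclr-2 384 to 932. Without the farthest libraries, Δclr-3 at 4 h had 1346 genes (877) and the change over time 824 (532). The replicate block changed 0 of 90 calls of the 5 genes; with the block, acu-9 in wild type on Avicel over starved was -2.22 with a limma adjusted p of 0.00985. FPKM hold no counts, so no count test was made, and 3 libraries a group limit the precision, most for acu-6 at 4 h.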
